A study of Homo sapiens with 8 samples.

Results

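MicroRNA levels on days 8 and 10 of erythroid induction were compared with those on days 4 and 6 in K562, a line of human chronic myeloid leukaemia cells with erythroid potential. These 4 arrays were chosen by the days in their sample titles, from 8 arrays in the series. Days 0, 2, 15 and 22 were left out of the comparison. All 4 cultures had been adapted to the serum-free medium StemLineII and then received 50 ng/ml interleukin 3 and 7.5 U/ml erythropoietin. By these labels the groups differ in time only, and no uninduced culture of the same age is among them. The arrays of the 2 periods also differed in signal and in spot order, as given below. Each day had 1 array, and the 2 arrays of a period are different time points that stand in for replicates. Separate cultures are not stated for the days, so p-values reflect only the spread of these arrays, which may be technical. The extraction protocol names CD34 cells where all other labels name K562. The cell type could not be checked on its defining red cell microRNAs, since MIR451A, MIR144 and the MIR486 genes were not analysed here (0 of 4).

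A microRNA is a short RNA that pairs with target messages mainly through its seed, bases 2 to 8, and lowers their translation or stability. Members of a family share a seed and so can share targets. In red cell precursors the cluster within the host transcript MIR17HG is linked to proliferation, whereas the let-7 family is known for holding down growth genes. The array gave 207 features of 3 spots each, and 67 of them carried a microRNA gene symbol. The symbols refer to genes, and which mature arm a spot detects is not stated.

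The sequences of the genes that the results turn on are shown first, because several belong to families whose members differ by few bases. Mature sequences were found in RefSeq (GRCh38.p14) for 65 of the 67 genes, and the capitals mark the seed. The first set holds the genes lower on days 8 and 10, with the arms that RefSeq lists:
hsa-miR-19a-3p: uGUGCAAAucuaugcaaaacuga
hsa-miR-19a-5p: aGUUUUGCauaguugcacuaca
hsa-miR-15a-5p: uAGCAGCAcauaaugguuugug
hsa-miR-15a-3p: cAGGCCAUauugugcugccuca
hsa-let-7c-5p: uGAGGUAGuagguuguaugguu
hsa-let-7c-3p: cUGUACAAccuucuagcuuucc
hsa-let-7b-5p: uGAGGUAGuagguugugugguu
hsa-let-7b-3p: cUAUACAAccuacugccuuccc

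The second set holds the genes higher on those days relative to the other features of the array, with 1 or both listed arms:
hsa-miR-29a-3p: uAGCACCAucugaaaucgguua
hsa-miR-29a-5p: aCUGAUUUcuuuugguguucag
hsa-miR-23a-3p: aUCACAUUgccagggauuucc
hsa-miR-23a-5p: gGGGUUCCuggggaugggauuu
hsa-miR-423-5p: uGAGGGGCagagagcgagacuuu
hsa-miR-423-3p: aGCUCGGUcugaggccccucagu
hsa-miR-328-3p: cUGGCCCUcucugcccuuccgu
hsa-miR-96-5p: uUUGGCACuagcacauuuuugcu
hsa-miR-374a-3p: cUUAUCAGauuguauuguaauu

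The third set holds measured genes that did not pass the test. Those of miR-15b, miR-424, miR-23b, miR-98 and let-7 are shown because they carry a seed of the sets above. The seed of miR-20a-5p is also that of miR-93-5p. The arms of miR-18a and miR-20a carry seeds outside those sets and are shown because their genes neighbour MIR19A:
hsa-miR-15b-5p: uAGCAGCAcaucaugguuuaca
hsa-miR-424-5p: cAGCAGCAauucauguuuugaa
hsa-miR-23b-3p: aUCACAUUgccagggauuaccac
hsa-let-7d-5p: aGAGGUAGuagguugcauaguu
hsa-let-7e-5p: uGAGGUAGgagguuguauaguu
hsa-let-7g-5p: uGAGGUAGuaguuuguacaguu
hsa-let-7i-5p: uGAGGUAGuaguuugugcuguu
hsa-miR-98-5p: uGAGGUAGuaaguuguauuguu
hsa-miR-18a-5p: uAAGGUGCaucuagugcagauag
hsa-miR-20a-5p: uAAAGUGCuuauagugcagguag

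The 5p arms of let-7b and let-7c differ at 1 of 22 bases, and the 3p arms of miR-23a and miR-23b at 1 of the 21 they align over. Spots for such pairs may not tell them apart, and their values are uncertain to that extent. MIR19A lies at chr13:91350891-91350972 on the plus strand, within the span of the host gene MIR17HG, with MIR18A and MIR20A as measured neighbours. MIR15A lies at chr13:50049119-50049201 on the minus strand, within DLEU2. MIR29A lies at chr7:130876747-130876810 on the minus strand, within no other annotated gene. MIR23A lies at chr19:13836587-13836659 on the minus strand, within MIR23AHG. MIRLET7C lies at chr21:16539828-16539911 within MIR99AHG, and MIRLET7B at chr22:46113686-46113768 within MIRLET7BHG, both on the plus strand.

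Signal over the whole array was lower on the later days. Counted from the dimmest spot of its array, the median spot had 312 units of Cy3 intensity on day 4 and 131 on day 6, against 46 on day 8 and 60 on day 10. Mean intensity on both later days was below that on both earlier days in 192 of 207 features, and above it in 0. All levels below are therefore log2 values after quantile normalization, which gives every array the same distribution, so higher and lower mean relative to the other features. Before normalization 200 of 207 differences were negative, with a median of -0.90. That median was 0.00 after quantile normalization, 0.24 with median centring and 0.37 with 75th percentile scaling. The order of the spots within a feature also split the arrays by period. Taking the 30 brightest features, spot 3 outshone spot 1 in 25 of them on day 4 and 26 on day 6, but in 7 on day 8 and 9 on day 10. This switch and the days cannot be told apart, since each period lies on 1 side of it.

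MIR19A had the smallest p-value of all features. This member of the MIR17HG cluster stood at log2 10.05 and 9.75 in the early period (days 4 and 6) and at 8.19 and 8.14 in the later one (days 8 and 10). Above the dimmest spot it measured 2303 ± 53.7 and 850 ± 87.9 intensity units early, then 157 ± 24.6 and 162 ± 29.1 later (SD, n = 3 spots; the SD covers spotting and reading only). Both early days stood above both later days, and the 6 spots of the later days, at most 8.38, all lay below the 6 of the earlier days, at least 9.68. All spots lay apart in that direction in 24 of 207 features. The steps from day 4 to 6 and from day 8 to 10 were -0.30 and -0.05, while the step from day 6 to 8 was -1.56. The difference between the periods was -1.74 ± 0.22 (SE, 2 arrays against 2, adjusted p = 2.95e-10, limma with Benjamini-Hochberg adjustment over 207 features). It was negative under each scaling, at -2.83 without normalization, -1.69 with median centring and -1.56 with 75th percentile scaling. The call was lost without day 4 (adjusted p = 0.0817, limma) and without day 6 (adjusted p = 0.107, limma), where the differences were -1.56 and -1.84, and the adjusted p over all alternatives ran from 1.93e-09 to 0.521 (limma).

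Across all features 17 were higher on days 8 and 10 (8.21%) and 21 lower (10.1%) at an adjusted p under 0.05 in limma, 38 in all (18.4%). This split depended on the scaling, with 0 higher and 66 lower without normalization, 41 and 14 with median centring, and 70 and 10 with 75th percentile scaling. Of the features called after quantile normalization, 6 of the higher and 4 of the lower carried a microRNA symbol. In the fit each feature's own variance, with 2 residual degrees of freedom, was weighed against a shared variance with a prior of 102, so nearly all features had an SE close to 0.22. With each feature's own variance alone 0 passed in either direction, and 26 had an unadjusted p under 0.05, against 63 in limma's moderated fit. The smallest p that an exact permutation of 2 arrays against 2 allows is 0.333. Leaving out 1 array left 1 array in a period, and the sharing of variance then changed. The SEs of MIR29A and MIR374A were 0.86 and 0.16 without day 4, and 0.83 and 0.17 without day 6. Both were 0.28 without day 8 and 0.29 without day 10, against 0.25 and 0.21 with all 4 arrays. A call lost or kept there therefore also depends on how variance was shared. The counts moved to 0 without day 4 and to 0 without day 6, with 32 and 52 features at an unadjusted p under 0.05 in limma. They were 7 higher and 8 lower without day 8, and 13 and 11 without day 10.

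**Figure D1:**
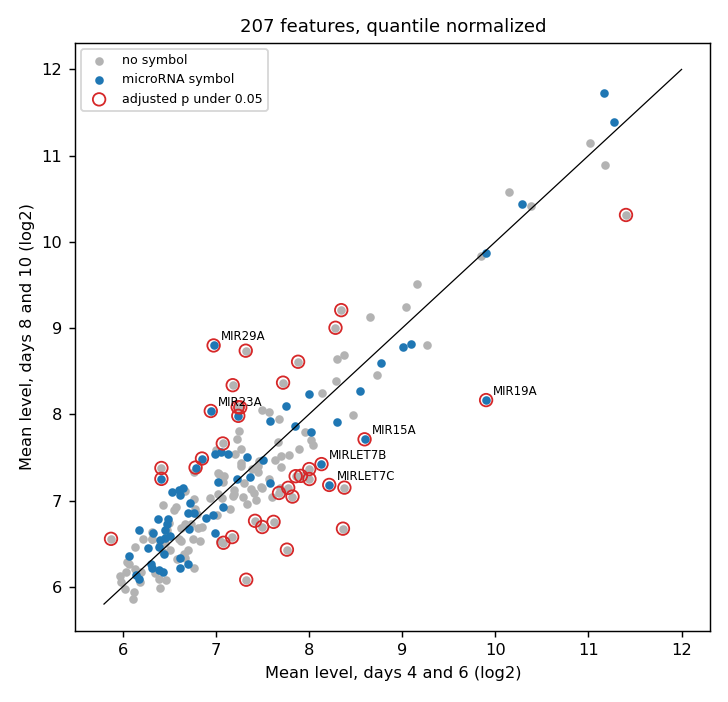
Mean log2 level on days 8 and 10 (vertical axis) against days 4 and 6 (horizontal axis) for 207 features after quantile normalization, with the line of equal levels. Red rings mark the 38 features with an adjusted p under 0.05, and MIR19A lies farthest below the line among named features, MIR29A farthest above it.

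The genomic neighbours of MIR19A did not pass the test. MIR18A, which shares the host transcript, stood at 9.95, 9.86, 9.92 and 9.83 on days 4, 6, 8 and 10, a difference of -0.03 ± 0.21 (SE). MIR20A stood at 10.92, 11.64, 11.41 and 11.37, a difference of 0.11 ± 0.22 (SE), which was negative under the other 3 scalings. The early and later days overlapped for both genes. MIR25 and MIR93, relatives of the cluster hosted within MCM7, had differences of -0.28 and -0.18 in the quantile scaling, which turned positive with median centring and with 75th percentile scaling. Of the 5 measured members of the cluster and its relatives, 1 fell and 0 rose, beside 10.1% and 8.21% of all features. Their median difference was -0.18, beside 0.00 over all features, and it was -0.32 without day 4, -0.30 without day 8 and 0.01 without day 10.

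Of the let-7 family 2 of 7 measured members fell and 0 rose, beside 10.1% and 8.21% of all features. MIRLET7C stood at log2 7.71, 8.72, 7.18 and 7.18 on days 4, 6, 8 and 10. Its early days differed by 1.01, while its later days were level, and both later days lay below both early ones. The later period minus the early one gave -1.04 ± 0.23 (SE, limma's adjusted p = 0.000235). Leaving out day 4 gave -1.59 and leaving out day 6 gave -0.54, and the call was lost each time (adjusted p = 0.0817 and 0.154, limma). MIRLET7B, whose 5p arm is the near copy shown above, followed the same course with 7.72, 8.55, 7.48 and 7.37. Its difference was -0.71 ± 0.22 (SE, adjusted p = 0.0151, limma), and leaving out any 1 of the 4 arrays ended the call, with adjusted p from 0.112 to 0.289 in limma. It was -1.19 without day 4 and -0.31 without day 6. The spots of the early and later days overlapped for both MIRLET7C and MIRLET7B.

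The other let-7 members had smaller differences that did not pass. MIRLET7G was at -0.39, MIRLET7D at -0.38, MIRLET7I at -0.28, MIRLET7E at -0.23 and MIR98 at 0.18. In 6 of 7 members both later days lay below both early days, where 30% of all features did so. These 6 lie between rows 4 and 22 of the deposited table, and in rows 1 to 207 the share was 53.6%. Named rows run largely by microRNA name, so family and place in the table cannot be told apart for these 6. MIR98, at row 613, had overlapping periods. With a smooth trend over row number removed, MIRLET7C was at -0.72 and MIRLET7B at -0.39, neither of which passed, and MIRLET7I at 0.036. The family median was -0.38, and it was -1.49 without normalization, -0.35 with median centring and -0.22 with 75th percentile scaling, so its sign was the same under all 4 scalings, although MIRLET7I turned positive in the last and MIR98 negative without normalization. All 7 members carry the seed GAGGUAG in their 5p arm.

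**Figure D2:**
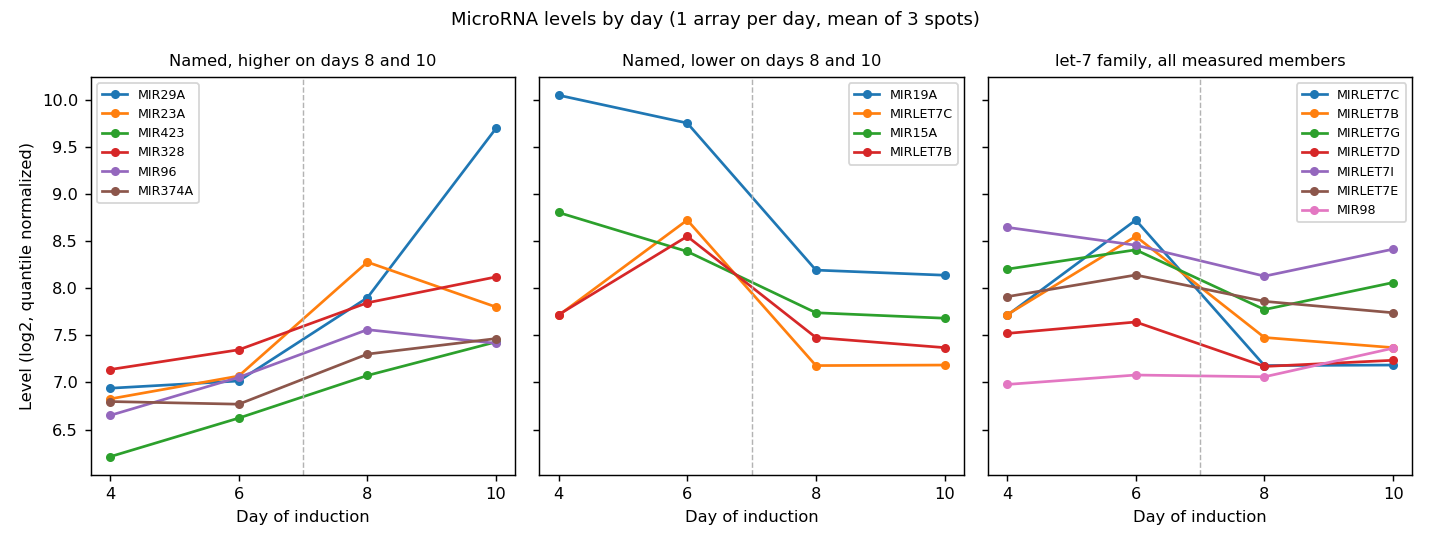
Log2 level (quantile normalized, mean of 3 spots) on days 4, 6, 8 and 10 for the 6 named features that were higher, the 4 that were lower and the 7 let-7 members, with 1 array per day and a dashed line between the periods. MIR19A drops between days 6 and 8, MIR29A climbs mostly between days 8 and 10, and MIRLET7C and MIRLET7B peak on day 6.

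MIR15A fell, and the other genes with its seed did not pass. This repressor of BCL2 stood at log2 8.80, 8.39, 7.74 and 7.68 on days 4, 6, 8 and 10. All 6 later spots lay below all 6 earlier ones, as in 24 of all 207 features. Above the dimmest spot MIR15A measured 859 ± 56.4, 304 ± 17.4, 93 ± 9.54 and 101 ± 10.0 units (SD, n = 3 spots). The periods differed by -0.89 ± 0.22 (SE, limma's adjusted p = 0.00134), and leaving out any 1 array ended the call, with adjusted p from 0.0530 to 0.221 in limma and differences from -1.15 to -0.74. MIR15B, with 10.36, 10.21, 10.67 and 10.21, had a difference of 0.15 that was negative without normalization and with median centring. MIR424 had one of 0.20, negative without normalization. The seed AGCAGCA is common to all 3 genes, and their 5p arms differ from each other at 4 to 7 of 22 bases.

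Among features that were higher, MIR29A had the largest difference. It belongs to a family that represses collagens and other matrix genes. Its log2 levels were 6.94, 7.02, 7.90 and 9.70 in order of day. The day 10 array stood alone: the step from day 8 to 10 was 1.80, larger than the step of 0.88 from day 6 to 8. In intensity above the dimmest spot it measured 277 ± 37.0, 118 ± 14.5, 113 ± 2.65 and 476 ± 94.4 units (SD, n = 3 spots), so day 8 was not above the early days before scaling. The difference was 1.82 ± 0.25 (SE, limma's adjusted p = 5.22e-09) and 0.96 without day 10. It was positive under each scaling, at 0.64 without normalization, where it did not pass (adjusted p = 0.296, limma). The call was also lost without day 4 (adjusted p = 0.386, limma) and without day 6 (adjusted p = 0.278, limma).

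MIR23A and MIR23B share a seed and both had later days above early days, as did 31.4% of all features. Their features start at rows 346 and 349, and in rows 208 to 414 that share was 36.2%. MIR23A, a microRNA known from muscle and blood cells, stood at 6.82, 7.07, 8.28 and 7.80 on days 4, 6, 8 and 10, a difference of 1.09 ± 0.22 (SE, limma's adjusted p = 5.01e-05). Without normalization that difference was 0.01. Its call was lost without day 4 and without day 6, at 0.94 and 1.21 (adjusted p = 0.283 and 0.120, limma). MIR23B stood at 6.95, 7.02, 7.77 and 7.30, and its difference of 0.55 ± 0.22 (SE) did not pass and was -0.55 without normalization.

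The other 4 named features that were higher had differences under 1 on the log2 scale. MIR423, hosted within NSRP1, stood at 6.21, 6.62, 7.07 and 7.43, a difference of 0.84 ± 0.22 (SE, adjusted p = 0.00263, limma). MIR328, hosted within ELMO3, stood at 7.14, 7.35, 7.85 and 8.12, a difference of 0.74 ± 0.22 (SE, adjusted p = 0.00845, limma). MIR96, clustered with MIR182 and MIR183 and known from sensory organs, stood at 6.65, 7.05, 7.56 and 7.42. MIR374A, within the X-linked FTX transcript, stood at 6.80, 6.77, 7.30 and 7.47. The differences of MIR96 and MIR374A were 0.64 and 0.60 (adjusted p = 0.0293 and 0.0391, limma). All 6 later spots lay above all 6 early spots in each of these 4 genes, as in 24 of all 207 features. Without normalization MIR423 was at 0.02, and MIR328, MIR96 and MIR374A turned negative, at -0.43, -0.46 and -0.47. Leaving out 1 array ended the call of MIR328, MIR96 and MIR374A whichever array it was, and that of MIR423 without day 4, day 6 or day 10. Without day 4 the differences of MIR96 and MIR423 were 0.38 and 0.55.

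**Figure D3:**
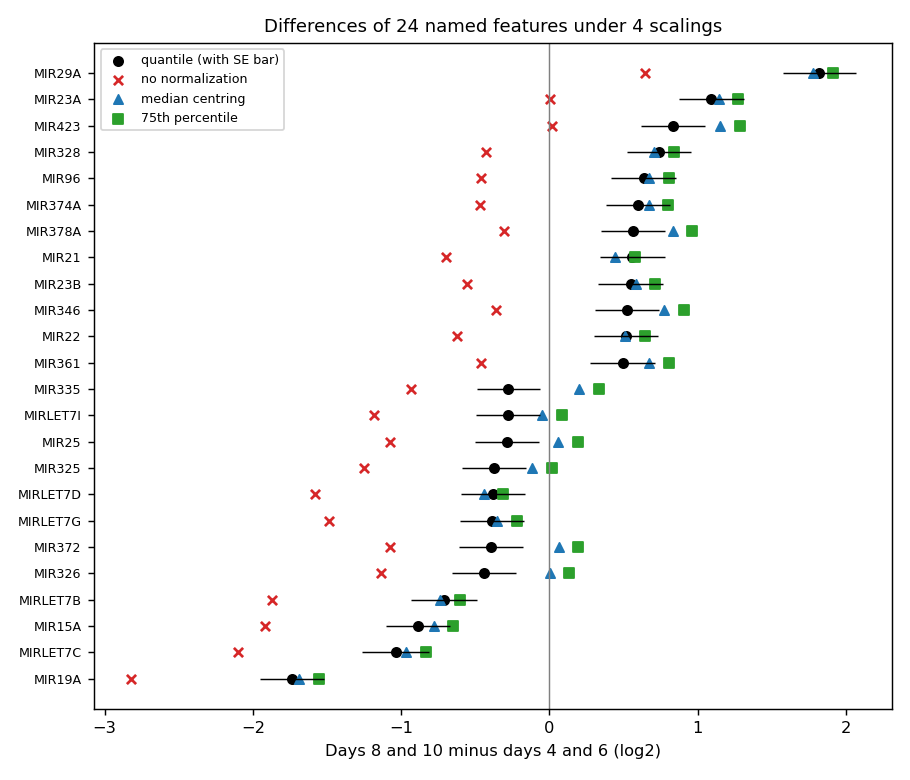
Difference between days 8 and 10 and days 4 and 6 (log2, horizontal axis) for the 12 named features per direction with the smallest p, under 4 scalings, with the SE as a bar on the quantile value. MIR19A, MIRLET7C, MIR15A and MIRLET7B are negative and MIR29A is positive under all 4, while 9 of the 12 higher features turn negative without normalization.

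Next in order of p on the higher side were MIR378A at 0.57, MIR21 at 0.56, MIR346 at 0.52, MIR22 at 0.52 and MIR361 at 0.50, and none passed (adjusted p from 0.0512 to 0.103, limma). MIR21, abundant in many tumours, measured 4417 ± 136, 3791 ± 117, 3117 ± 239 and 1986 ± 104 units above the dimmest spot (SD, n = 3 spots). Its intensity was lower on each later day, while its rank among the features was 5, 2, 1 and 1. MIR22, a microRNA of red cell precursors, stood at 7.07, 7.03, 7.73 and 7.41. These 5 differences were negative without normalization.

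On the lower side MIR326 at -0.44, MIR372 at -0.39, MIR325 at -0.37 and MIR335 at -0.28 came next. None of these 4 passed in limma, and all turned positive with 75th percentile scaling. MIR326, MIR372 and MIR335 also turned positive with median centring. MIR372 is an embryonic microRNA.

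Among the microRNA lists not yet described, only the erythroid list held calls. Of the 4 measured members of the erythroid list, MIR96 rose, MIR15A fell and MIR22 and MIR15B did not pass, where 8.21% of all features rose and 10.1% fell. The median of 0.34 was -0.91 without normalization, 0.16 without day 8 and 0.56 without day 10. Of the 9 measured genes of the imprinted cluster on chromosome 14, 0 passed in either direction in limma, with differences from -0.08 to 0.40. MIR370 had a mean level above that of MIR373, an embryonic microRNA listed as a marker of unrelated tissue, and the other 8 did not. Both later days lay above both early days in 6 of these 9, beside 31.4% of all features. All 9 lie between rows 439 and 556, and in rows 415 to 621 that share was 50.7%. The cluster median of 0.17 was -0.59 without normalization. The megakaryocyte members MIR10A and MIR10B were at 0.11 and 0.00. In the remaining small lists 0 passed: MIR26B was at 0.35, MIR33A at -0.22, MIR450A1 at 0.35 and MIR342 at -0.13. Of the 67 named features, 39 had positive and 28 negative differences. Periods overlapped in 25 of them, beside 80 of all 207 features. In rows 415 to 621, which hold 45 of the 67, 49 of 69 features had positive differences.

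Of 27 microRNAs listed as markers of unrelated tissues, 6 had a feature. These were the embryonic MIR371A, MIR372, MIR373 and MIR367, the epithelial MIR429 and the islet MIR375. They had mean levels from 6.30 (MIR375) to 7.0 (MIR373) and differences from -0.39 to 0.44, and 0 of them passed in limma. Probes differ in affinity, so such levels do not rank abundance, and whether they are background signal was not tested. The summed log2 level of the 6 was 39.7, 39.5, 39.3 and 39.1 on days 4, 6, 8 and 10. In the early period the highest of the 6 was MIR373, at a mean of 7.08. Of the 6 named features that were higher later, MIR29A (6.98), MIR23A (6.95), MIR96 (6.85), MIR374A (6.78) and MIR423 (6.42) had early means below it and MIR328 (7.24) one above it. The early values of those 5 thus lay no higher than that of a marker of unrelated tissue. In the later period all 6 had means above the highest marker, then MIR429 at 7.06. The 4 named features that were lower had means above the highest marker in both periods.

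Features without a symbol made up 28 of the 38 that passed, beside 140 of all 207 features. The largest differences among them were -1.69 for the feature starting at row 136 of the deposited table, 1.42 at row 343, -1.33 at row 28, -1.24 at row 151, -1.23 at row 82, 1.16 at row 196 and -1.09 at row 265. The choice of these 7 was made with their values known. The feature at row 265 was among the brightest, at 11.66, 11.15, 10.11 and 10.51 on days 4, 6, 8 and 10. The feature at row 343 stood at 7.27, 7.37, 9.13 and 8.34. That at row 136 stood at 8.74, 7.99, 6.06 and 7.29, so its later days differed by 1.23.

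The direction of the difference followed the place in the table. In rows 1 to 207 there were 16 features lower and 1 higher, in rows 208 to 414 there were 5 lower and 8 higher, and in rows 415 to 621 there were 0 lower and 8 higher. The median differences were -0.27, 0.06 and 0.19. The same medians without normalization were -1.41, -0.79 and -0.64, so the order was kept there. Within the early period the medians of the step from day 4 to 6 were -0.11, -0.06 and 0.10, and within the later period those of the step from day 8 to 10 were 0.00, -0.03 and -0.04. MIR15A and the let-7 genes other than MIR98 lie in the first of these blocks, MIR98 in the last, MIR19A, MIR23A and MIR29A in the second, and MIR328, MIR374A, MIR423 and MIR96 in the last. Whether row order follows place on the slide is not given in the sources used here, and its part in the result was not tested. Named features run largely in order of microRNA name, so family members with like names are neighbours. For these, family and place in the table cannot be told apart. Removing a smooth trend over rows also removes part of any difference that neighbours share. With a smooth trend over row number removed, 12 were higher and 9 lower, and MIR19A, MIR15A, MIR29A and MIR23A passed in limma, as did MIR326, while the calls of MIRLET7C, MIRLET7B, MIR328, MIR423, MIR96 and MIR374A were lost. The 4 higher ones of these were then at 0.54, 0.64, 0.43 and 0.41.

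**Figure D4:**
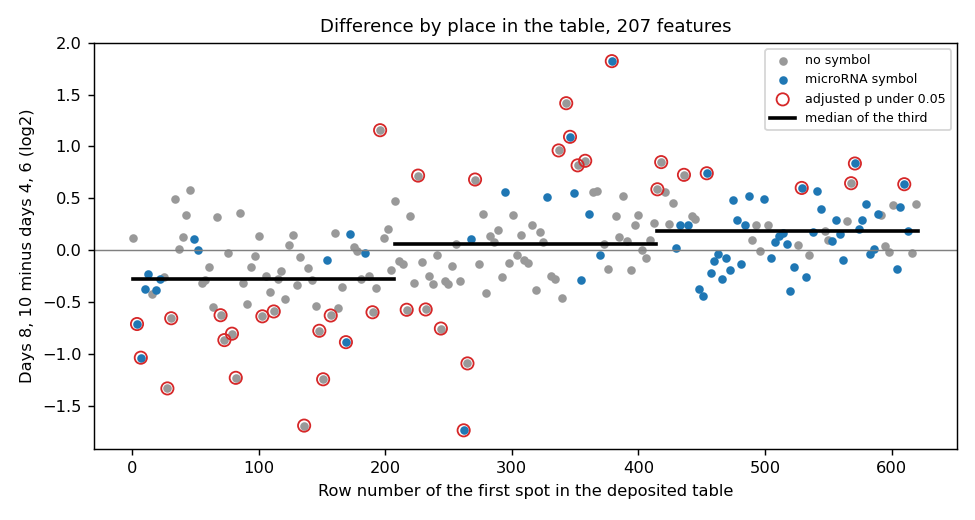
Difference between the periods (log2, vertical axis) against the row number of each feature's first spot (horizontal axis), with black bars for the median of each block of 69 features. The bars step up from -0.27 to 0.06 and 0.19, and 16 of the 21 lower features lie in the first block.

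The shift between days 6 and 8 was set beside the steps within each period. The median size of the change was 0.27 from day 6 to 8, 0.21 from day 4 to 6 and 0.18 from day 8 to 10, with SDs over features of 0.49, 0.33 and 0.33. From day 6 to 8 a change of at least 1 was reached by 4 features upward (1.93%) and 7 downward (3.38%). From day 4 to 6 it was reached by 2 upward (0.966%) and 0 downward (0%), and from day 8 to 10 by 4 upward (1.93%) and 0 downward (0%). Each step sets 1 array against another and has no replicate check. In 105 of 207 features the step from day 6 to 8 was the largest of the 3. Across features the arrays of a period were alike, with r = 0.954 for days 4 and 6 and 0.952 for days 8 and 10, against 0.845 to 0.901 between periods. Features are not independent replicates. Both later days lay above both early ones in 65 features and below them in 62, or 31.4% and 30%.

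**Figure D5:**
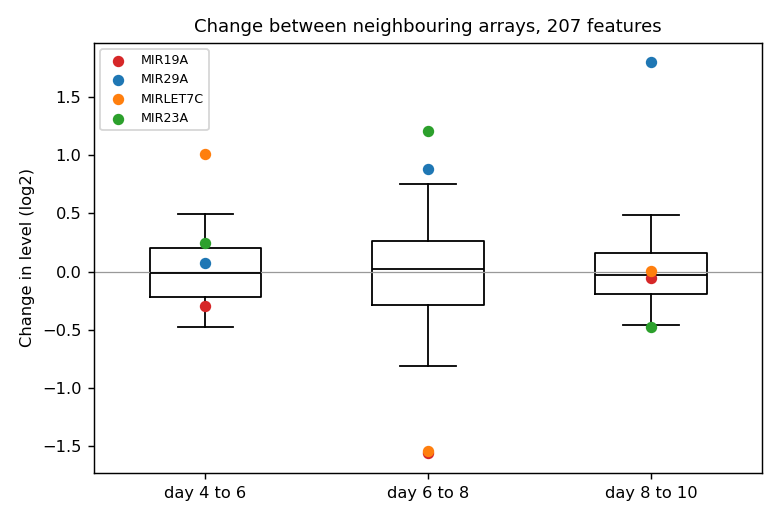
Change in log2 level between neighbouring arrays for 207 features, with boxes for the quartiles, whiskers from the 5th to the 95th percentile and coloured points for 4 named genes. The box is widest from day 6 to 8, where MIR19A and MIRLET7C drop by 1.56 and 1.55, while MIR29A makes its largest step, 1.80, from day 8 to 10.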

How the data were processed

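The series holds 8 columns of Cy3 values for 621 rows, 1 column per day. The authors deposited Cy3 intensity on a linear scale, centred on each array's mean, as the column means near 0 show. Scanner, image software and upstream steps are not given in the sources available. The true zero and the scale between arrays are therefore unknown. The number of arrays limits the precision.

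Every 3 consecutive rows were taken as the spots of 1 feature, giving 207 features. Of the rows, 201 had 1 gene symbol, 0 several and 420 none. All 67 symbols were current in RefSeq by gene identifier.

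Days 4, 6, 8 and 10 were corrected with normexp (offset 50), log2 transformed, quantile normalized and averaged over spots in limma 3.58.1 (R 4.3.3). The contrast of days 8 and 10 minus days 4 and 6 was tested with lmFit and eBayes, with Benjamini-Hochberg adjustment over 207 features and a threshold of 0.05. The test was also run on simulated levels with independent errors of the same spread for all features. That setting cannot check the test for unequal variances or for days standing in for replicates. Named in full were the 12 named features per direction with the smallest p. The members, lists and tests were chosen with earlier results of these data known. In all, 17 planned and 2 later alternatives were run. Figures were drawn with matplotlib 3.10.9.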

Additional observations from a re-analysis of the deposited data

How the results depend on the processing

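No paired analysis was possible because the labels give each day 1 array and no shared replicate numbers. Of 447 values for the 24 named features under 19 alternatives, 305 kept direction and side of the threshold, 10 that had not passed were exactly 0 under the floor and have no direction, 97 no longer passed, of which 3 were also 0 there, 15 newly passed and 20 changed sign. Counts of features higher and lower were 17 and 21. They were 0 and 66 without normalization, 41 and 14 with median centring, 70 and 10 with 75th percentile scaling, 11 and 15 with an offset of 16, 13 and 11 with the dimmest spot set to 50, 0 and 0 with a floor at the lowest positive value, 10 and 10 with only features above the median level, 15 and 7 on spot 1, 0 and 1 on spot 2, 3 and 8 on spot 3, 0 and 2 in a fit over 7 arrays, and 0 and 0 with ordinary variances. With the row trend removed, an alternative chosen after seeing the data like that with ordinary variances, they were 12 and 9. Leaving out 1 array gave 0 to 13 higher and 0 to 11 lower. A 0 stood beside 93 and 8 features at an unadjusted p under 0.05 in limma without normalization and with the floor. On spot 2 and over 7 arrays it stood beside 51 and 32 in limma. With ordinary variances it stood beside 26 in a t-test without moderation.

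Features with non-overlapping periods, 65 higher and 62 lower, numbered 1 and 167 without normalization, 117 and 36 with 75th percentile scaling, 15 and 16 with the floor, 32 and 38 above the median level, 106 higher with median centring and 35 lower on spot 1. Leaving out 1 array gave 79 to 90 and 79 to 89, because fewer arrays overlap less. The differences that changed sign without normalization were MIR328 at -0.43, MIR96 at -0.46, MIR374A at -0.47, MIR378A at -0.30, MIR21 at -0.69, MIR23B at -0.55, MIR346 at -0.36, MIR22 at -0.62 and MIR361 at -0.46. With median centring MIR326 was at 0.0029, MIR372 at 0.063, MIR25 at 0.058 and MIR335 at 0.20. With 75th percentile scaling MIR326 was at 0.14, MIR372 at 0.20, MIR325 at 0.016, MIR25 at 0.19, MIRLET7I at 0.085 and MIR335 at 0.33. MIRLET7I was at 0.036 with the row trend removed. MIR19A passed in 15 of 19 alternatives, MIR23A in 12, MIR29A and MIRLET7C in 11 each, MIR15A in 10, MIR328 in 8 and MIRLET7B in 6, while MIR423 and MIR374A passed in 8 and 4 of the 18 that gave them a value. MIR96 passed in 3 of 19. The call of MIR96 was lost with median centring, and that of MIR374A with quantile normalization over 7 arrays. The 7 arrays were those of days 0, 2, 4, 6, 8, 10 and 22, and the fit over them was quantile normalized over all 7. In that fit days 0 and 2 formed 1 group, so the spread between them entered its variance. Beyond the scaling itself the cause of these changes was not tested.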
